A study of Mus musculus with 36 samples.

Results

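The miRNAs mmu-miR-375-3p, mmu-miR-205-5p, mmu-miR-204-5p and mmu-miR-211-5p are 4 of the 1966 mature miRNAs in the deposited count table, of which 1387 had a count in at least 1 library. They were selected on their counts, chosen by values that are high in single LF libraries of epididymal white adipose tissue (eWAT), so every contrast with eWAT LF is given here as a description with no test. Small RNA was sequenced from bulk eWAT and liver of 24-week-old WT males on the C57BL/6 strain, labelled generation F1. The diet labels are HFD (HF), HFLFD (HFLF) and LFD (LF), with 6 libraries for each diet in each tissue and 36 libraries in all. All groups had chow until 6 weeks of age, then 18 weeks on the diet under study. The treatment note of every sample, HF and HFLF included, names LFD, so it is not stated if HF and HFLF were eaten by these mice or by an earlier generation. No label says that libraries of a group come from separate animals, so p-values measure the spread between libraries only.

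A miRNA is cut from the arms of a hairpin precursor, and the mature strand pairs with target mRNAs mainly through its seed, bases 2 to 8. miR-375 is abundant in pancreatic islets and other endocrine and epithelial cells, and in mouse islet cells it restrains insulin secretion. miR-205 is an epithelial miRNA that acts with the miR-200 family against the mesenchymal factors ZEB1 and ZEB2. miR-204 is made in several epithelia, among them retinal pigment epithelium, and favours adipocyte over bone formation in mesenchymal progenitors. miR-211 is best known from melanocytes.

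The mature sequences show how close 2 of the 4 miRNAs are, with the seed in capitals (RefSeq, GRCm38.p6; 3 of the 4 members matched a mature entry).
mmu-miR-205-5p: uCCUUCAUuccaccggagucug
mmu-miR-204-5p: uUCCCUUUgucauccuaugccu
mmu-miR-211-5p: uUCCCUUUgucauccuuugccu
mmu-miR-204-5p and mmu-miR-211-5p have the same seed and are the same at 21 of 22 bases. They differ by A17U, counted from the 5′ end, with the base of mmu-miR-204-5p first. Among 1679 mature mouse miRNAs searched, mmu-miR-7670-3p was the other one with that seed, and 0 others had the seed of mmu-miR-205-5p. The opposite arms set the 2 loci further apart.
mmu-miR-204-3p: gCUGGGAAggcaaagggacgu
mmu-miR-211-3p: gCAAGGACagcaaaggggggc
Compared position by position, these 3p arms differ at 7 of 21 bases. For miR-375 the precursor is shown with its 5p arm in capitals, because no read of that arm was counted in any library.
Mir375: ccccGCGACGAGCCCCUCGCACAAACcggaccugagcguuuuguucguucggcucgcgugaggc

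Each member has 1 line and 1 precursor in the count table. On GRCm38, Mir375 lies at chr1:74900658-74900721 on the minus strand, outside annotated genes of other kinds, with Cfap65 as the nearest coding gene at 1350 bp. Mir205 lies at chr1:193507463-193507530 on the minus strand, in an exon of the long noncoding RNA 4631405K08Rik. Mir204 lies at chr19:22750605-22750672 in an intron of Trpm3, and Mir211 at chr7:64205806-64205911 in an intron of Trpm1, both on the plus strand like their host genes. The near-identical pair therefore comes from separate chromosomes and related host genes.

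Libraries held 9066683 to 17714156 counts in eWAT and 7866583 to 18832842 in liver. Levels are given as CPM, counts scaled to a common library total. Tissue labels fitted their markers: hepatocyte miR-122-5p took 0.0137 to 0.309% of counts in eWAT and 45.6 to 57.0% in liver, and miR-143-3p 12.8 to 22.8% in eWAT and 0.771 to 1.70% in liver. Liver HF replicate 6 and liver LF replicate 4 had 368 and 316 miRNAs with a count, fewer than any other library, and the authors' liver log2 table leaves out both. In eWAT, LF replicates 1 and 4 stood apart, as the next paragraphs describe. In bulk tissue, fewer cells of a type and less RNA per cell cannot be told apart.

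The 4 miRNAs had very different ordinary levels in eWAT. mmu-miR-204-5p ranked 154 of 755 miRNAs by its median of 103.0 CPM over the 12 HF and HFLF libraries. mmu-miR-205-5p and mmu-miR-375-3p followed at ranks 351 and 356, with medians of 6.39 and 6.10 CPM. mmu-miR-211-5p was near the limit of detection, at 0.347 CPM and rank 648.

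**Figure D1:**
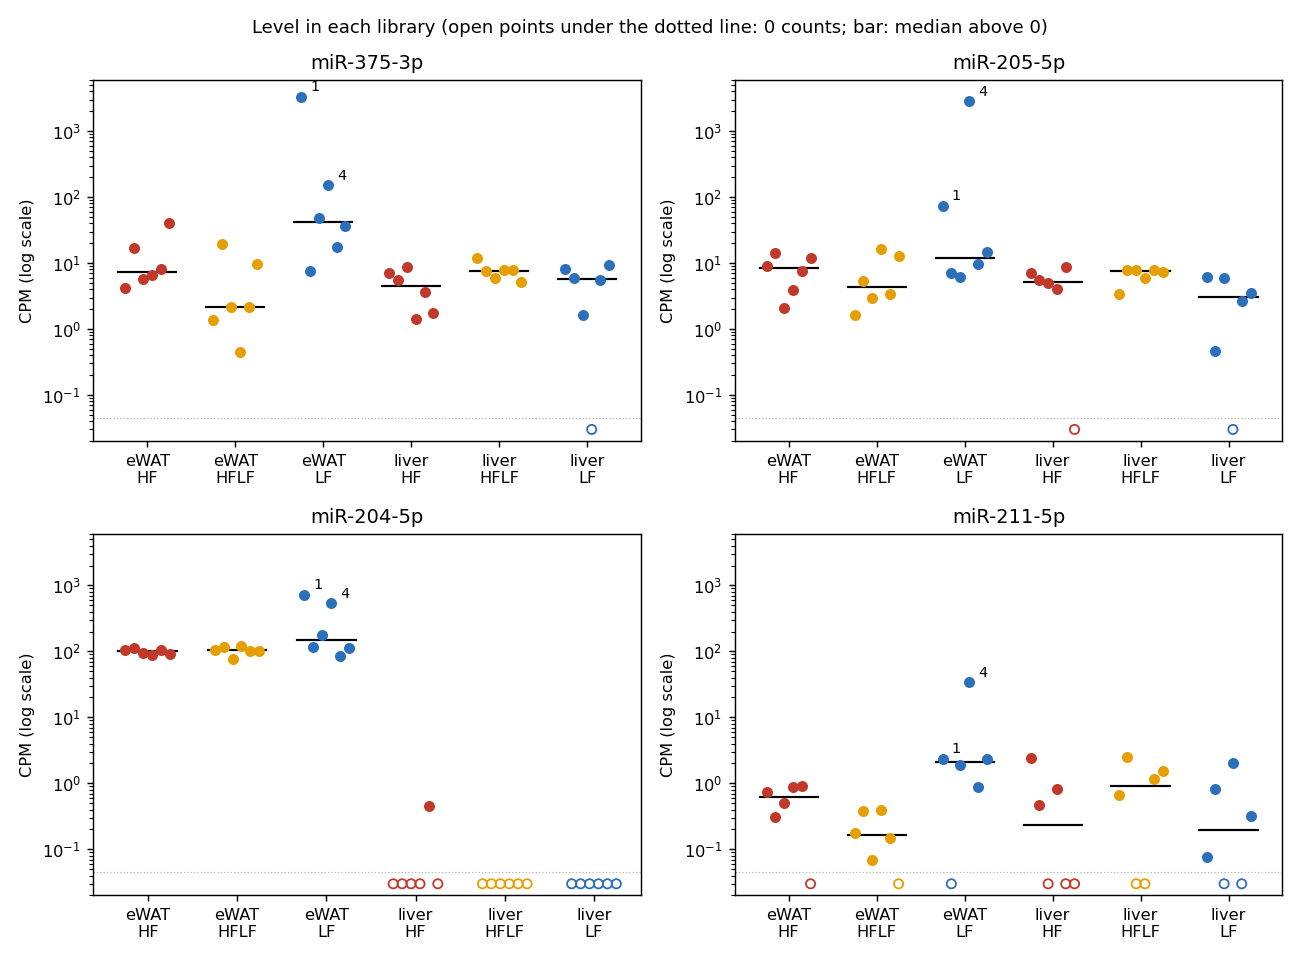
CPM on a log scale in each of the 36 libraries, by tissue and diet (6 libraries a group); open points are libraries with 0 counts and bars are group medians above 0. In eWAT LF, replicates 1 and 4 are labelled: mmu-miR-375-3p is highest in replicate 1 and mmu-miR-205-5p and mmu-miR-211-5p in replicate 4, while mmu-miR-204-5p is at 77.4 to 177 CPM in the other 16 eWAT libraries and at 0 in 17 of 18 livers.

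For mmu-miR-375-3p, the lowest, median and highest eWAT levels were 4.19, 7.28 and 41.1 CPM in HF, 0.452, 2.19 and 19.7 CPM in HFLF, and 7.48, 42.5 and 3298 CPM in LF. The LF maximum was replicate 1, with 57292 counts, followed by replicate 4 with 1465. The other 4 LF libraries held 7.48 to 48.1 CPM, within or close to the range of HF. The fitted log2 difference was -5.51 for HF and -6.68 for HFLF against LF, and -1.002 and -2.21 without LF replicates 1 and 4.

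For mmu-miR-205-5p, the lowest, median and highest eWAT levels were 2.09, 8.28 and 14.4 CPM in HF, 1.60, 4.35 and 16.4 CPM in HFLF, and 6.17, 12.02 and 2851 CPM in LF. Here the maximum was LF replicate 4, with 27423 counts, and replicate 1 came next at 73.7 CPM. The fitted log2 difference was -5.99 for HF and -6.08 for HFLF against LF, and -0.17 and -0.29 without LF replicates 1 and 4. With those libraries aside, the 3 diets overlapped throughout.

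For mmu-miR-204-5p, the lowest, median and highest eWAT levels were 88.3, 99.8 and 111 CPM in HF, 77.4, 104 and 122 CPM in HFLF, and 85.7, 147 and 726 CPM in LF. LF replicates 1 and 4 held 726 and 533 CPM, and the next highest of all 18 was LF replicate 3 at 177 CPM. It was thus the member with the narrowest relative spread outside those libraries, at 99.3 ± 8.68 CPM in HF and 104 ± 15.3 CPM in HFLF (SD, n = 6 each). The fitted log2 difference was -1.60 for HF and -1.49 for HFLF against LF, and -0.29 and -0.20 without LF replicates 1 and 4. In the authors' deposited eWAT table of 180 miRNAs, mmu-miR-204-5p is the 1 member kept, at 8.68 log2 CPM in LF replicate 1, 8.12 in replicate 4 and 6.57 in replicate 3. These values are on the authors' own scale and are not the log2 of the CPM given here, so only their order is compared.

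For mmu-miR-211-5p, the lowest, median and highest eWAT levels were 0, 0.623 and 0.926 CPM in HF, 0, 0.162 and 0.395 CPM in HFLF, and 0, 2.12 and 33.99 CPM in LF. LF replicate 4 had 327 counts, and the other 17 eWAT libraries had 0 to 41. The fitted log2 difference was -3.64 for HF and -5.09 for HFLF against LF, and -1.18 and -2.63 without LF replicates 1 and 4. The floor of 3 counts used here corresponds to 0.169 to 0.331 CPM in an eWAT library, so 6 of the 12 HF and HFLF values of this miRNA lie at or under it.

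LF replicates 1 and 4 were the highest pair of the 18 eWAT libraries for each of the 4 miRNAs, although for mmu-miR-211-5p replicate 1, with 41 counts (2.36 CPM), and LF replicate 6, with 35 (2.32 CPM), were within counting error. The 2 libraries did not hold the 4 miRNAs in the same proportions. mmu-miR-375-3p was 21.7-fold higher in LF replicate 1 than in replicate 4. mmu-miR-205-5p was 38.7-fold and mmu-miR-211-5p 14.4-fold higher in replicate 4 than in replicate 1. mmu-miR-204-5p was nearly level, at 1.36-fold for replicate 1 over replicate 4. Against the median of the other 16 eWAT libraries, replicate 1 held mmu-miR-375-3p 424-fold and mmu-miR-205-5p 10.1-fold, and replicate 4 held them 19.6-fold and 391.7-fold. In replicate 1, mmu-miR-375-3p ranked 37 of 849 detected miRNAs, and in replicate 4, mmu-miR-205-5p ranked 40 of 783. Of 1314 miRNAs with an eWAT count, 5.48% were above all the other 16 libraries in both replicates, 13.2% in replicate 1 and 14.8% in replicate 4. Since the members were picked for this, nothing is read from their own count.

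**Figure D2:**
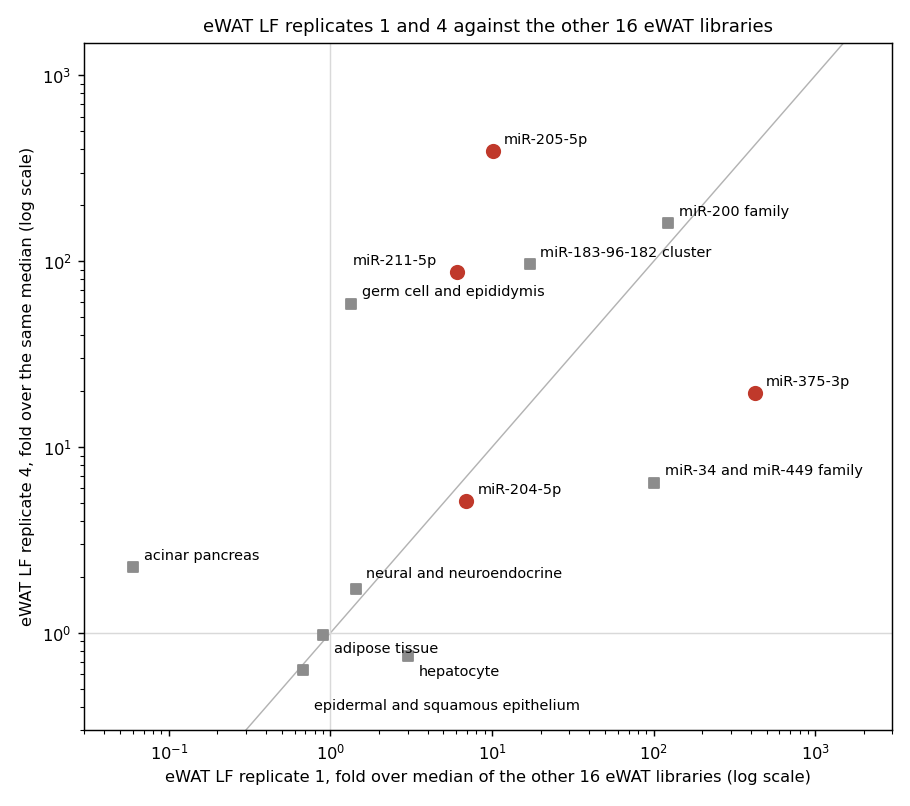
Fold of eWAT LF replicate 1 (horizontal) and LF replicate 4 (vertical) over the median of the other 16 eWAT libraries, both on log scales, for the 4 miRNAs (red circles) and the summed CPM of 9 marker lists (grey squares); the diagonal marks equal folds. mmu-miR-375-3p lies below the diagonal, at 424-fold and 19.6-fold, and mmu-miR-205-5p above it, at 10.1-fold and 391.7-fold.

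Marker lists of other cell types moved with the same libraries. The miR-200 family, 10 epithelial miRNAs, summed to 15997 CPM in LF replicate 1 and 20819 CPM in LF replicate 4, against 62.1 to 290 CPM in the other 16 eWAT libraries; 9 of its 10 members were above all 16 in each, and 1 had no eWAT count. The epithelial cluster of miR-183, miR-96 and miR-182, 6 arms in all, summed to 580 and 3279 CPM in replicates 1 and 4, against 18.0 to 78.4 CPM. The miR-34 and miR-449 list of 9, miRNAs of ciliated and germ cells, leaned to replicate 1 like mmu-miR-375-3p, with 4406 CPM there, 283 CPM in replicate 4 and 30.9 to 221 CPM elsewhere. A list of 30 germ cell and epididymis miRNAs leaned to replicate 4, with 26.8 CPM in replicate 1, 1180 CPM in replicate 4 and 0.534 to 568.4 CPM elsewhere, and 23 of the 30 were above all the other 16 in replicate 4. In replicates 1 and 4, miR-465a-3p and miR-465b-3p had identical counts (33 and 923), and miR-465c-3p was close to them (33 and 879). The same reads may thus enter this sum and the 23 more than once. The part of these lists in the values of the 4 miRNAs was not tested.

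By their sums, other lists set these libraries apart less or not at all, though single members of some did stand apart. The miR-203 list of 4, miRNAs of epidermis and squamous epithelium, summed to 1634 CPM in replicate 1, 1523 CPM in replicate 4 and 1767 to 3013 CPM elsewhere, so both were below the rest. The acinar pancreas list of 6 summed to 0.288, 10.8 and 1.13 to 36.6 CPM in the same order, with 4 of its 6 members at 0 in both replicates. The 8 neural and neuroendocrine miRNAs summed to 582, 703 and 368 to 650 CPM, so replicate 4 was above the rest. The largest part was miR-7a-5p, at 411 CPM in replicate 1, 544 CPM in replicate 4 and 303 to 551 CPM elsewhere. Of the 8, 3 were above all 16 in replicate 1 and 5 in replicate 4. Among them, miR-129-5p held 129 CPM in replicate 1, 11.3 CPM in replicate 4 and 3.78 to 14.96 CPM elsewhere. The hepatocyte list of 5 reached 5092 CPM in replicate 1, against 1272 CPM in replicate 4 and 848 to 3524 CPM elsewhere. Of its members, miR-192-5p and miR-194-5p were above all 16 in replicate 1, at 3135 and 1819 CPM against 118 to 242 and 113 to 197 CPM, while its defining member miR-122-5p was lowest there of all 18, at 137 CPM against 553 to 3092 CPM in the 16. The adipose list of 5 held 185610, 202382 and 165414 to 260281 CPM, so the sum of both replicates lay within the range of the rest, while 2 of the 5, miR-10b-5p and miR-196a-5p, were above all 16 in replicate 4 (47605 and 1242 CPM, against up to 42478 and 660 CPM).

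The opposite arms were rarer than the members, and 3 of the 4 had no count outside the same libraries. mmu-miR-205-3p had 16 counts in LF replicate 1, 44 in LF replicate 4 and 0 in the other 34 libraries. mmu-miR-211-3p had 13 counts in LF replicate 4 and 0 elsewhere, and mmu-miR-375-5p had 0 throughout, which against 57292 counts of mmu-miR-375-3p in replicate 1 allows a share of up to 0.00644% (exact binomial interval). mmu-miR-204-3p was counted in all 18 eWAT libraries and no liver, and took 0.513% of both arms in LF replicate 1 (95% Clopper-Pearson interval 0.396 to 0.653%), 2.01% in replicate 4 (1.64 to 2.42%) and 0.0978 to 1.91% in the other 16. These intervals and the floor cover counting error only.

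In likeness across the 18 eWAT libraries, by Pearson's r of log2(CPM + 1) over 638 miRNAs, the most alike miRNAs of each member were found. These values include LF replicates 1 and 4, which chose the members, so the list restates how the members lie in those libraries. The 5 miRNAs most like mmu-miR-375-3p were miR-34b-3p (r = 0.94), miR-34c-5p (0.92), miR-34c-3p (0.89), miR-135a-5p (0.87) and miR-135a-2-3p (0.85), all 5 higher in LF replicate 1 than in replicate 4. Those most like mmu-miR-205-5p were miR-183-5p (0.94), miR-96-5p (0.92), miR-200c-3p (0.91), miR-141-3p (0.90) and miR-182-5p (0.90), all higher in replicate 4. Those most like mmu-miR-204-5p were all of the miR-200 family: miR-200b-3p (0.95), miR-200a-3p, miR-200c-3p (0.94 each), miR-200a-5p and miR-200b-5p (0.93 each). For mmu-miR-211-5p they were miR-96-5p (0.91), miR-182-5p (0.88), mmu-miR-205-5p (0.87), miR-141-3p (0.85) and miR-200c-3p (0.85). The points share libraries and sequencing depth.

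**Figure D3:**
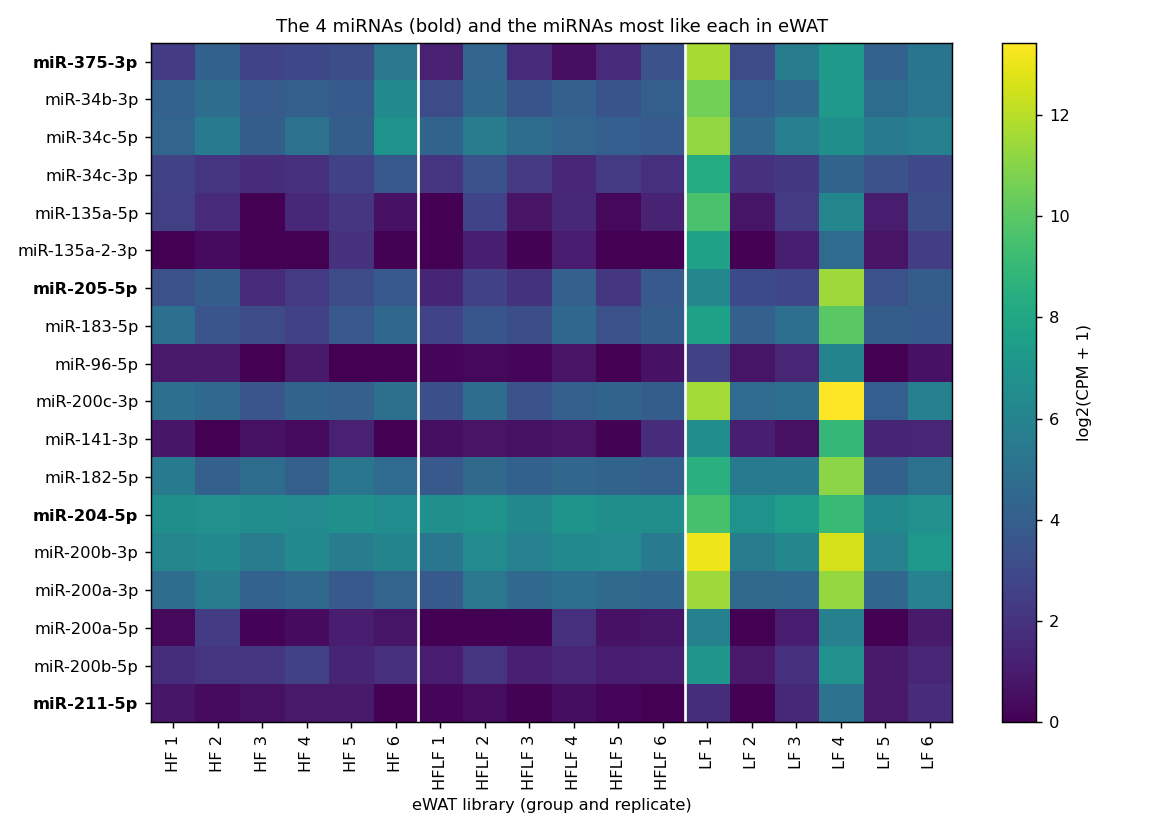
log2(CPM + 1) in the 18 eWAT libraries (columns, by diet and replicate) for the 4 miRNAs, in bold, and the 5 miRNAs most like each, listed once. LF replicates 1 and 4 are the bright columns: the block from mmu-miR-375-3p to miR-135a-2-3p is brightest in replicate 1, and mmu-miR-205-5p, miR-200c-3p, miR-182-5p and mmu-miR-211-5p are brightest in replicate 4.

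Spearman's rho, which ranks the libraries, was 0.83 for mmu-miR-375-3p with miR-34b-3p, 0.74 for mmu-miR-205-5p with miR-183-5p, 0.46 for mmu-miR-204-5p with miR-200b-3p and 0.47 for mmu-miR-211-5p with miR-96-5p. Without LF replicates 1 and 4, over the other 16 libraries, r was lower for all 20 pairs named above. For mmu-miR-375-3p it was 0.79 with miR-34b-3p, 0.76 with miR-34c-5p, 0.60 with miR-34c-3p, 0.48 with miR-135a-5p and 0.39 with miR-135a-2-3p. For mmu-miR-205-5p it was 0.66 with miR-183-5p and 0.22 with miR-182-5p. For mmu-miR-204-5p it was 0.16 with miR-200b-3p and 0.42 with miR-200c-3p, and for mmu-miR-211-5p, at its low counts, 0.39 with miR-96-5p and 0.18 with mmu-miR-205-5p. miR-34b-3p itself, which ran with mmu-miR-375-3p, held 1505 CPM in LF replicate 1, 151 CPM in replicate 4 and 7.60 to 85.8 CPM elsewhere.

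The 2 miRNAs with a shared seed were counted side by side in eWAT, where reads ending before or misread at the 1 differing base could be placed on either. mmu-miR-211-5p had a count in 15 of 18 eWAT libraries. Its share of the summed counts of both was 5.99% in LF replicate 4 (95% Clopper-Pearson interval 5.38 to 6.66%) and 0 to 2.04% in the other 17, with a median of 0.324%. In LF replicate 1, which had the most mmu-miR-204-5p, the share was 0.324% (0.233 to 0.439%). So mmu-miR-211-5p did not follow mmu-miR-204-5p from library to library at a fixed ratio.

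In liver the order was the reverse. mmu-miR-211-5p had 155 counts over 11 of 18 libraries, at up to 2.50 CPM, and none of those 11 held a count of mmu-miR-204-5p. mmu-miR-204-5p had 7 counts in all, in HF replicate 5, which held no mmu-miR-211-5p. The other 17 livers had 0, which allows up to 0.159 to 0.381 CPM in a library.

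**Figure D4:**
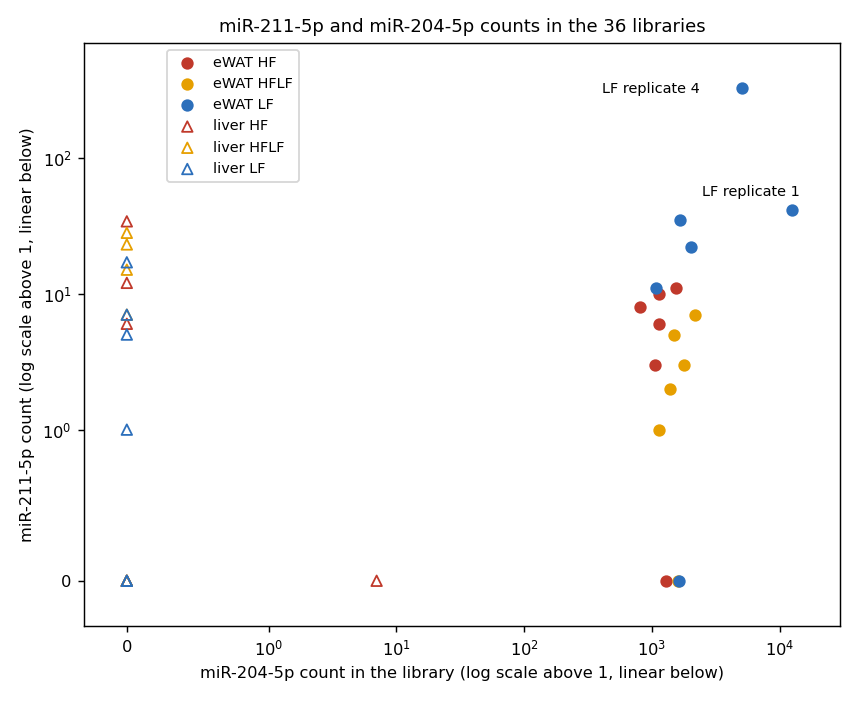
Counts of mmu-miR-211-5p (vertical) against mmu-miR-204-5p (horizontal) in the 36 libraries, on axes that are logarithmic above 1 and linear below; filled circles are eWAT and open triangles liver, coloured by diet. Livers line the left edge at 0 counts of mmu-miR-204-5p with up to 34 of mmu-miR-211-5p, apart from 1 liver with 7 and 0, while eWAT libraries hold 801 to 12613 counts of mmu-miR-204-5p, and LF replicate 4 has 327 of mmu-miR-211-5p.

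The comparison of eWAT with liver within HF and within HFLF, fitted without any LF library, asks in which tissue the 4 miRNAs are more abundant apart from the LF libraries that chose them. mmu-miR-204-5p was far higher in eWAT. It held 88.3 to 111 CPM in eWAT HF, against 0 in 5 livers and 0.447 CPM in the remaining liver of HF, a log2 difference of 9.06 ± 0.61 (SE; adjusted p = 1.93e-11, edgeR quasi-likelihood test with Benjamini-Hochberg adjustment; n = 6 each). In HFLF it held 77.4 to 122 CPM in eWAT, against 0 in all 6 livers (adjusted p = 7.08e-12 in the edgeR fit). With the liver group set to the floor of 3 counts over its 6 libraries, eWAT was 2627-fold higher. The lower limit of the 95% interval of the pooled ratio was 2136-fold. The call held in all 19 alternative fits of each diet, the fit with no filter among them. mmu-miR-204-5p passed the filter on low counts through the eWAT groups, where it is higher, so these p-values are a description. Its counts were 801 to 1538 in eWAT HF and 1135 to 2164 in eWAT HFLF. Liver HF had 7 in all and liver HFLF 0. The ranges did not overlap in either diet, and how many of all miRNAs show this was not counted. Without liver HF replicate 5 the HF livers also had no count, and that fold could not be fitted.

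mmu-miR-211-5p went the other way in HFLF. No eWAT HFLF library reached the minimum count of 10, against 3 of liver HFLF, so it passed the filter on low counts through the groups where it is higher. The p-values below are therefore a description and no support for a tissue difference. mmu-miR-211-5p had 0 to 7 counts in eWAT HFLF, 18 in all, and 0 to 28 in liver HFLF, 73 in all, at 0 to 0.395 CPM and 0 to 2.50 CPM. The log2 difference was -3.37 ± 1.35 (SE; edgeR adjusted p = 0.033), but the ranges overlapped, and the adjusted p went up to 0.201 over the alternatives: 9 of 19 made the call. It was lost with plain library sizes (log2 difference -2.27, adjusted p = 0.12), with no filter (adjusted p = 0.06), and without any 1 of eWAT HFLF replicates 1, 3, 5 and 6 or liver HFLF replicates 2, 5 and 6, where the adjusted p was 0.0539 to 0.0734. It was also lost with a replicate block (adjusted p = 0.201). In HF its difference was -1.38 ± 1.25 (edgeR adjusted p = 0.36), with 38 counts in eWAT and 52 in liver.

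mmu-miR-375-3p and mmu-miR-205-5p were not called in either diet in the fit without a block. For mmu-miR-375-3p, the eWAT and liver medians were 7.28 and 4.52 CPM in HF and 2.19 and 7.65 CPM in HFLF, with log2 differences of 0.33 ± 0.68 (SE; edgeR adjusted p = 0.72) and -1.51 ± 0.69 (edgeR adjusted p = 0.069). Leaving out eWAT HFLF replicate 2 made the HFLF difference -2.35 with an adjusted p of 0.00682 in edgeR. A replicate block made it -2.54 (adjusted p = 0.025). With plain library sizes the differences were 1.56 in HF (adjusted p = 0.0501) and -0.38 in HFLF. For mmu-miR-205-5p, the eWAT and liver medians were 8.28 and 5.24 CPM in HF and 4.35 and 7.55 CPM in HFLF, with differences of -0.52 ± 0.68 (edgeR adjusted p = 0.54) and -1.03 ± 0.68 (edgeR adjusted p = 0.21). With plain library sizes these last were 0.69 and 0.08, of the other sign.

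Between tissues, many miRNAs differ. In HF, 54.5% of 633 miRNAs were called, 34.8% higher in eWAT, and 1 of the 4 members was called. In HFLF, 53.1% were called, 30.6% higher and 22.4% lower in eWAT, and 2 of the 4 were, 1 in each direction. The members called, mmu-miR-204-5p and mmu-miR-211-5p, passed the filter through the groups where they are higher. Their calls are thus a description, and that of mmu-miR-211-5p held in 9 of 19 alternatives. These shares depend on scaling: TMM gave 220 higher and 125 lower in eWAT in HF, and 194 and 142 in HFLF, and plain library sizes gave 379 and 50, and 367 and 54. The median log2 difference of all miRNAs was 0.45 in HF and 0.26 in HFLF with TMM, and 1.65 and 1.39 with plain sizes, so the differences of single miRNAs are to be read against those medians.

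The companion lists did not share 1 tissue pattern. Of the miR-200 family, 7 of 10 were tested and 0 were higher and 4 lower in eWAT than in liver in HF, and 0 and 6 in HFLF, with median log2 differences of -1.998 and -3.28. All 4 tested members of the miR-183, miR-96 and miR-182 cluster were lower in both diets, with medians of -4.32 and -5.54; miR-183-5p differed by -4.13 ± 0.63 in HF (SE; edgeR adjusted p = 3.41e-06). Of the 5 tested miR-34 and miR-449 miRNAs, 3 were higher in eWAT and 0 lower in HF, and 4 and 0 in HFLF, with medians of 4.19 and 3.24. Of 12 tested germ cell and epididymis miRNAs, 1 was higher in eWAT and 0 lower in HF, and 0 and 6 in HFLF, but 4 and 0, and 0 and 0, with plain library sizes. Among those 6, miR-465a-3p, miR-465b-3p and miR-465c-3p each differed by -2.86 and, with identical or nearly identical counts, may not be separate signals. With plain library sizes the medians of the first 3 lists kept their signs, though 1 and 2 of the 7 miR-200 miRNAs then lay above 0 in HF and HFLF. In liver, but not in the eWAT fit of HFLF against HF, the filter kept miR-183-3p, miR-96-5p, miR-141-3p and miR-200a-5p. It kept miR-34b-5p, miR-34c-3p and miR-449a-5p in that eWAT fit but not in liver. With TMM each lay higher in the tissue that kept it, so any call of these miRNAs is a description.

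**Figure D5:**
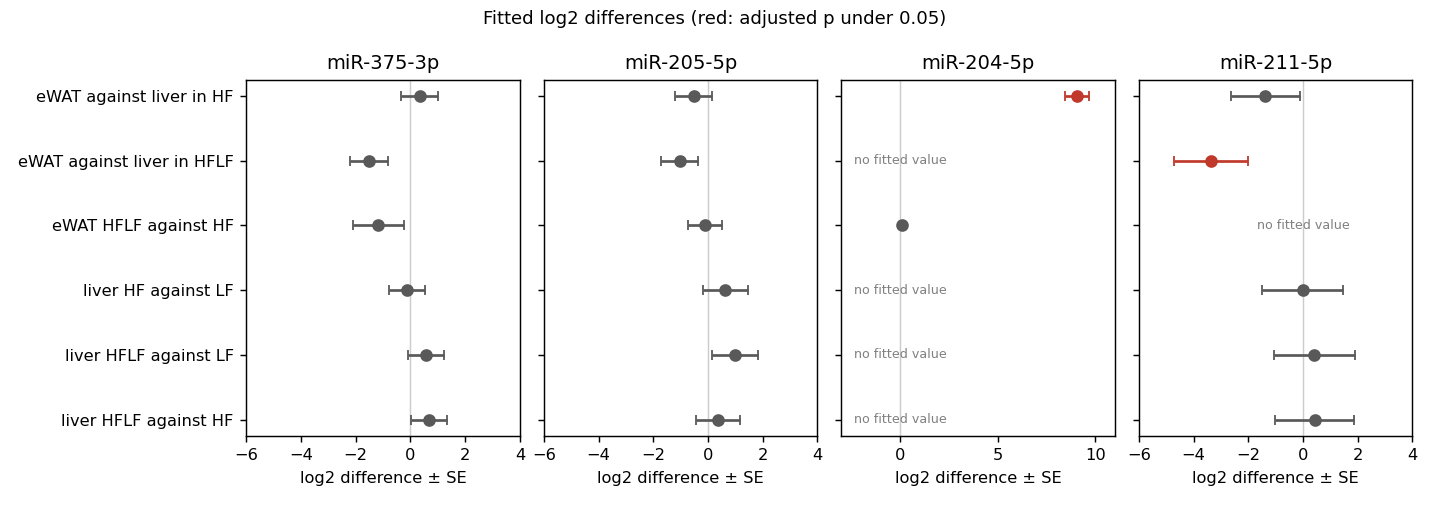
Fitted log2 difference and SE of each miRNA in the 6 comparisons that use no eWAT LF library (first-named group over the second); red points had an adjusted p under 0.05. The mmu-miR-204-5p point at 9.06 and the mmu-miR-211-5p point at -3.37 are red. The mmu-miR-211-5p point is a description only, since it passed the filter through the groups where it is higher. "No fitted value" marks miRNAs removed as too low, or a group with all libraries at 0.

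The diets were compared in the libraries that did not choose the members. In eWAT, HFLF against HF, 0 of the 3 members tested were called, beside 0% of 575 miRNAs (edgeR; 27 had an unadjusted p under 0.05, and DESeq2 called 0 and had 31). mmu-miR-204-5p differed by 0.10 ± 0.12 log2 (SE; adjusted p = 0.989 in edgeR), the estimate with the smallest error of the 3. mmu-miR-375-3p differed by -1.18 ± 0.92 and mmu-miR-205-5p by -0.12 ± 0.61, each with the same adjusted p. mmu-miR-211-5p, at 18 counts in HFLF and 38 in HF, was too low to be tested.

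In liver, mmu-miR-375-3p had lowest, median and highest levels of 1.42, 4.52 and 8.65 CPM in HF, 5.23, 7.65 and 11.8 CPM in HFLF, and 0, 5.79 and 9.23 CPM in LF. mmu-miR-205-5p had 0, 5.24 and 8.75 CPM in HF, 3.38, 7.55 and 7.94 CPM in HFLF, and 0, 3.04 and 6.24 CPM in LF. mmu-miR-211-5p had 0, 0.235 and 2.45 CPM in HF, 0, 0.918 and 2.50 CPM in HFLF, and 0, 0.198 and 2.001 CPM in LF. All 3 diets overlapped for each of these miRNAs. LF replicate 4 held no count of mmu-miR-375-3p or mmu-miR-205-5p, and 17 of mmu-miR-211-5p, the most of its group.

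No member was called in liver, where 0% of 478 miRNAs were called in each of the 3 diet comparisons. edgeR gave 16 unadjusted p-values under 0.05 in HF against LF, 14 in HFLF against LF and 5 in HFLF against HF, and DESeq2, which also called 0, gave 26, 21 and 8. In HF against LF the log2 differences were -0.12 ± 0.65 for mmu-miR-375-3p, 0.63 ± 0.82 for mmu-miR-205-5p and -0.01 ± 1.48 for mmu-miR-211-5p (SE). In HFLF against LF they were 0.56 ± 0.66, 0.99 ± 0.82 and 0.41 ± 1.48 in the same order, and in HFLF against HF 0.68 ± 0.66, 0.36 ± 0.81 and 0.42 ± 1.46. These errors leave room for differences of more than 1 on the log2 scale for each of the 3 miRNAs. For mmu-miR-211-5p this holds in either direction in every comparison. It holds in either direction at least in HF against LF for mmu-miR-375-3p and in HFLF against HF for mmu-miR-205-5p. Without HF replicate 6 and LF replicate 4, still 0 members were called, and the HF against LF difference of mmu-miR-211-5p became 1.63, of the other sign. mmu-miR-204-5p, with its 7 counts, was too low to be tested.

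Whether the HFLF against HF difference itself differed between eWAT and liver was tested with an interaction term. The difference of differences was -1.84 ± 0.97 for mmu-miR-375-3p (SE; adjusted p = 0.61 in edgeR), -0.50 ± 0.95 for mmu-miR-205-5p and -1.99 ± 1.78 for mmu-miR-211-5p (adjusted p = 1.00 each). None of the 4 was called, beside 0.158% of 633 miRNAs. mmu-miR-204-5p has no fitted value there, since all livers of HFLF were at 0.

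By group median, the order of levels was eWAT LF first for all 4, and its range overlapped that of the next group for each. For mmu-miR-204-5p the 3 eWAT groups overlapped with each other and none overlapped with liver, and how many of all miRNAs show this was not counted. For mmu-miR-375-3p, mmu-miR-205-5p and mmu-miR-211-5p every pair of neighbouring groups overlapped, eWAT with liver included.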

How the data were processed

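Small RNA-seq of 36 libraries was analysed from the deposited tables. The count table holds whole-number counts per mature miRNA and precursor, which the authors made from reads with cutadapt and Bowtie on GRCm38.p6, per the submitters' processing notes; neither versions nor how near-identical sequences were handled is given there. The authors' deposited eWAT and liver tables hold log2 CPM values and were used for mmu-miR-204-5p only. Column letters were matched to titles by tissue, diet group and number. A miRNA on several lines was taken from its line with the highest total. Levels are CPM of the library total with no further factor. Differences were fitted with edgeR 4.0.16 in R 4.3.3 (quasi-likelihood, robust; TMM scaling; filterByExpr with a minimum count of 10 and total of 15) and adjusted by Benjamini-Hochberg over all miRNAs tested, with a threshold of 0.05; DESeq2 1.42.0 was an alternative. The code was tested on simulated data. The members and lists were chosen with earlier results of these data known. Named miRNAs are the members, their opposite arms, the 5 most alike to each member in eWAT and companion-list miRNAs. Same-numbered libraries of different groups showed little shared deviation, so the main fits used no pairing. This cannot show that same-numbered eWAT and liver libraries came from different mice, and a replicate block was fitted as an alternative. No pair of replicates agreed within sampling noise.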

Additional observations from a re-analysis of the deposited data

Results flagged for a closer look

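Each member was looked at in each group of 6 libraries where its level varied, 22 cases in all. In 6 of these cases, 1 library stood far from the other 5 by the gap over the range. No rate is read from this number, since 3 of the 6 are the values the members were picked for and 1 has all other libraries at 0. Chance alone flags about 1 case in 20 if values are normally distributed, which was not checked for these CPM values. In eWAT LF, mmu-miR-375-3p stood at 3298 CPM in replicate 1, against 7.48 to 152 CPM in the others. mmu-miR-205-5p stood at 2851 CPM in replicate 4, against 6.17 to 73.7 CPM, and mmu-miR-211-5p at 33.99 CPM in replicate 4, against 0 to 2.36 CPM. These are the 3 values of the selection. In eWAT HF, mmu-miR-375-3p stood at 41.1 CPM in replicate 6, against 4.19 to 17.01 CPM. In liver HF, mmu-miR-204-5p stood at 0.447 CPM in replicate 5, against 0 in the others, and mmu-miR-211-5p at 2.45 CPM in replicate 1, against 0 to 0.810 CPM.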

How the results depend on the processing

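Of 454 alternative values of the tested log2 differences, 417 kept their direction and side of the threshold, 25 changed sign, 10 lost the call and 2 gained it. No value that changed sign was called. Plain library sizes gave mmu-miR-205-5p 0.69 in HF and 0.076 in HFLF for eWAT against liver, and mmu-miR-211-5p 0.23 in liver HF against LF, where no filter gave 0.063 and leaving out liver LF replicate 4 and HF replicate 6 together 1.63. Leaving out 1 library at a time gave -0.40 to 0.15 for mmu-miR-375-3p and -1.47 to 1.35 for mmu-miR-211-5p in liver HF against LF, and for mmu-miR-211-5p -0.059 to 1.79 in HFLF against LF and -0.031 to 1.87 in HFLF against HF. It gave -0.60 to 0.12 for mmu-miR-205-5p in eWAT HFLF against HF, and, for eWAT against liver in HF, -0.40 to 0.63 for mmu-miR-375-3p and -1.64 to 0.0335 for mmu-miR-211-5p.

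In eWAT against liver in HFLF, 2 members were called, and 1 with plain library sizes or no filter, and 1 to 3 with 1 library left out; the cause was not tested. Same-numbered libraries of 2 groups correlated at -0.177 to 0.320 in their deviations from group means, with at most 2 of 6 pairs over 0.1. Such correlations cannot show if same-numbered eWAT and liver libraries came from the same mouse, so a pairing of the tissues stays possible. With a replicate block 331 and not 345 miRNAs were called between tissues in HF and 321 and not 336 in HFLF, where mmu-miR-375-3p was called (-2.54, adjusted p = 0.025 in edgeR) and mmu-miR-211-5p was not (-2.80, adjusted p = 0.201). Of the 5 most alike miRNAs, 3 remained for mmu-miR-375-3p and mmu-miR-205-5p and 2 for mmu-miR-211-5p with a pseudocount of 0.1 CPM; 1, 1, 1 and 0 remained for miR-375-3p, miR-205-5p, miR-204-5p and miR-211-5p without the LF library of highest level, and 2, 0, 0 and 0 without LF replicates 1 and 4, an alternative chosen after the data were seen. Depth limits mmu-miR-211-5p most, since 3 counts are 0.159 to 0.381 CPM in liver.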
